A study of Mus musculus with 33 samples.

Results

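The comparison described here is the step from day 3 to day 6 of reprogramming in cells that a sort had classed as negative for SSEA1. Its members are the 3 libraries titled d6 SSEA1- and the 3 titled d3 SSEA1-, 6 of the 33 libraries of the series, and they were chosen by title alone. The series measured poly-A RNA of mouse embryonic fibroblasts (MEFs) and of reprogramming and iPS cells sorted by flow cytometry on SSEA1, with 3 libraries in each of 11 groups. All groups share the strain background 129SV/Jae/C57BL6J. The d3 SSEA1- and d6 SSEA1- cells had been kept for 3 and 6 days in ES medium with dox and AA, and were stained and sorted after trypsin. The labels name no transgene, so an introduced copy of a reprogramming factor and the endogenous gene share 1 count here, and nothing in the labels says that replicates were separate cultures, so the spread behind each p-value may be technical. Below, day 3 and day 6 mean SSEA1- libraries unless SSEA1+ is written.

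SSEA1 is a carbohydrate of the surface of mouse pluripotent cells, made in part by the fucosyltransferase Fut9. Fibroblasts that take up the reprogramming factors divide faster, lose matrix and mesenchymal genes and gain epithelial genes early, and gain the pluripotency network late. The SSEA1- fraction holds the cells that have not gained the antigen, among them cells that will not go on to pluripotency.

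Levels are CPM, read counts scaled to library size with TMM factors. Changes are log2 fold change of day 6 over day 3 ± standard error, from the quasi-likelihood test of edgeR, with p adjusted by Benjamini and Hochberg over all genes tested. "Rose" and "fell" are used for changes of 2-fold or more with an adjusted p below 0.05. Reads in genes came to 26.71 to 41.69 M per library at day 3 and 23.87 to 32.59 M at day 6. Reads outside annotated genes were 5.32 to 6.95% of uniquely aligned reads at day 3 and 9.29 to 9.95% at day 6. This share moved with the day, and its part in the results was not tested. Libraries of one day correlated at r = 0.974 to 0.989 (day 3) and 0.962 to 0.983 (day 6) across genes, with replicate 1 the less alike of the 3 on both days.

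Of 17326 genes tested, 805 rose (4.65%) and 214 fell (1.24%), together 5.88%, and the median change of all tested genes was 0.02. Values of the 2 days did not overlap in 28.5% of genes, 14.9% with day 6 higher and 13.6% with day 6 lower. Same-numbered libraries deviated together, and with the replicate number as a block 1228 genes rose (7.09%) and 299 fell (1.73%), together 8.81%, among them 1017 of the 1019 called without it. The counts rested on single libraries. Without day 3 replicate 1 they were 154 and 50, and without day 3 replicate 3 they were 459 and 163. Without day 6 replicate 1 they were 1070 and 496, without day 6 replicate 2 they were 342 and 49, and without day 6 replicate 3 they were 381 and 174. The 1019 changes kept their sign in each of these fits. The median change was higher for genes of higher GC content, at -0.09 below 42% and 0.3 at 62% or more.

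**Figure D1:**
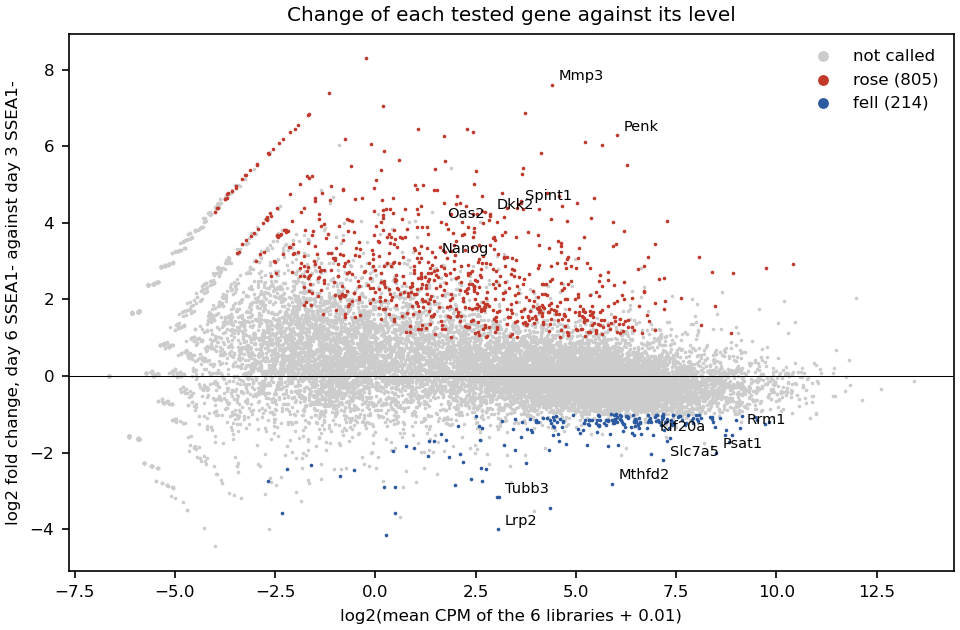
Each point is 1 of the 17326 tested genes. The horizontal axis is log2 of the mean CPM of the 6 libraries plus 0.01 and the vertical axis the log2 fold change of day 6 SSEA1- over day 3 SSEA1-. The 805 genes that rose (red) reach down to low levels and up to large changes, while most of the 214 that fell (blue) lie at high levels with changes between -1 and -2.

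Genes of cell division were lower at day 6 than at day 3. Of 35 tested genes of mitosis and cytokinesis, 19 fell (54.3%, against 1.24% of all tested genes) and 0 rose. All 35 had a negative change (median -1.11), and in 30 the values of the days did not overlap (day 6 lay wholly lower in 13.6% of all tested genes). Of 40 tested genes of DNA replication and S phase, 9 fell and 0 rose (median -0.91, 39 negative). In bulk RNA, fewer dividing cells and less of these messages per cell cannot be told apart.

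The promoters of such genes are shown here because their members moved together. They are the last 110 bases before the start site, 5′ to 3′ on the gene's strand, from RefSeq (GRCm38.p6). Capitals mark letters of a CCAAT box (CCAAT) or of the CHR element (TTTGAA or TTCGAA), read on either strand, in 3 genes that fell. In Mcm6 capitals mark letters of an E2F site (TTTCCCGC, TTTGGCGC, TTTCGCGC or TTTGCCGC, either strand), and 2 matches overlap at its 5′ end.
Cdc20, chr4:118437344-118437453, minus strand: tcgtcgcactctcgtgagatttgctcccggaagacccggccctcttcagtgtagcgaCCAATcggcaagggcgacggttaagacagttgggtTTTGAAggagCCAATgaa
Kif11, chr19:37376272-37376381, plus strand: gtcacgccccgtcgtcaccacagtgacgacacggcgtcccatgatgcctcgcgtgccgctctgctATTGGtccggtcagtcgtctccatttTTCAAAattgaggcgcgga
Top2a, chr11:99024190-99024299, minus strand: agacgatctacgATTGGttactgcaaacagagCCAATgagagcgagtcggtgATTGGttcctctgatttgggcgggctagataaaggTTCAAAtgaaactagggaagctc
Mcm6, chr1:128359706-128359815, minus strand: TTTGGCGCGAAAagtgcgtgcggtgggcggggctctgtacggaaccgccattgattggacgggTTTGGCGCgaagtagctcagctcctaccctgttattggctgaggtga
Searched over 300 bases (250 before to 50 after the start), the CHR element was in 23 of the 28 mitosis members with a promoter in the table (82.1%). It was in 16.4% of 12291 tested genes with a promoter and in 19.2% of the 32851 promoters searched. The CCAAT box was in 23 of 28 (82.1%), against 42.3% of tested genes and 37.4% of all promoters. An E2F site was in 13 of 31 replication members (41.9%), against 4.3% of tested genes and 2.3% of all promoters. Of the 7 replication members with a promoter that fell, 3 held one (Cdc6, Mcm5 and Mcm6). Chaf1a, Mcm10, Rrm1 and Rrm2 lacked it. Letters matched are a description and no binding was measured.

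Kif20a (ENSMUSG00000003779), a kinesin of the cleavage furrow, stood at 236, 162 and 149 CPM in day 3 replicates 1 to 3. At day 6 it stood at 74.7, 47.4 and 65.4 CPM. Every day 3 library was above every day 6 library, and the change was -1.54 ± 0.31 (adjusted p = 0.0043). Cenpe, a kinesin of the kinetochore, went from 259, 183 and 198 to 73.7, 69.3 and 99.1 CPM (-1.4 ± 0.28, adjusted p = 0.0039). Prc1, which bundles microtubules of the spindle midzone, changed by -1.21 ± 0.25, Tpx2, a spindle assembly factor, by -1.22 ± 0.26, and Hmmr, a spindle and hyaluronan-binding protein, by -1.29 ± 0.27. The other members that fell included Foxm1, a transcription factor of mitotic genes (-1.19 ± 0.26), the kinases Aurka (-1.31 ± 0.33), Plk1 (-1.36 ± 0.39) and Bub1 (-1.19 ± 0.35), and the cyclins Ccna2 (-1.23 ± 0.31) and Ccnb1 (-1.18 ± 0.36). Cdc20, the activator of the anaphase-promoting complex, changed by -1.11 ± 0.35, and Kif11 and Top2a, whose promoters are shown above, by -1 ± 0.32 and -1.16 ± 0.3. Mki67, the marker of dividing cells, stood at 644, 698 and 934 CPM at day 3 and at 242, 393 and 650 at day 6. Its highest day 6 library overlapped the day 3 range, and its change of -0.82 ± 0.35 did not pass the test (adjusted p = 0.13).

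Day 6 replicate 3 was the highest of the day 6 libraries in 33 of the 35 mitosis members and in 35 of the 40 replication members. The mean log2(CPM + 1) of the mitosis list was 7.55, 7.36 and 7.59 at day 3 and 6.08, 6.32 and 6.86 at day 6. In MEFs it was 6.8, 5.4 and 5.45, so that MEF replicates 2 and 3 lay below all 6 libraries of the step. Without day 3 replicate 1, 4 mitosis members fell, and without day 6 replicate 2, 6 fell. Kif20a, Cenpe, Prc1 and Tpx2 were called without any 1 of the 6 libraries, and the other 10 members named lost their calls without day 3 replicate 1. Without day 6 replicate 2 these 10 also lost theirs, apart from Hmmr and Foxm1. Bub1, Ccnb1, Kif11, Plk1 and Cdc20 lost theirs without day 3 replicate 3 and without day 6 replicate 1 as well, and Plk1 and Cdc20 whichever of the 6 libraries was left out.

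Among replication genes, Rrm1, a subunit of ribonucleotide reductase, stood at 1084, 651 and 619 CPM at day 3 and at 340, 290 and 292 at day 6 (-1.35 ± 0.24, adjusted p = 0.0018). The day 3 values were above all day 6 values. Rrm2, its partner subunit, went from 872, 436 and 568 to 188, 186 and 268 CPM (-1.55 ± 0.36). Ccne2, a cyclin of S phase entry, changed by -1.71 ± 0.38, and Cdc6, which loads the replicative helicase, by -1.38 ± 0.35. The histone chaperone subunit Chaf1a changed by -1.28 ± 0.3. Of the helicase genes, Mcm4, Mcm5 and Mcm6 fell (-1.05 ± 0.3, -1.37 ± 0.44 and -1.03 ± 0.29), and so did Mcm10, a replication fork factor (-1.12 ± 0.34). Only 1 replication member fell without day 3 replicate 1, which was the highest day 3 library for Rrm1, Rrm2 and Ccne2, and 1 without day 6 replicate 2; 5 fell without day 6 replicate 1. Rrm1 kept its call in all 6 of these fits, and Rrm2, Ccne2, Cdc6 and Chaf1a lost theirs without day 3 replicate 1 and without day 6 replicate 2. The 4 Mcm genes lost theirs in those fits and without day 6 replicate 1. Mcm4, Mcm5 and Mcm10 also lost theirs without day 3 replicate 3, and Mcm5 without any 1 library.

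**Figure D2:**
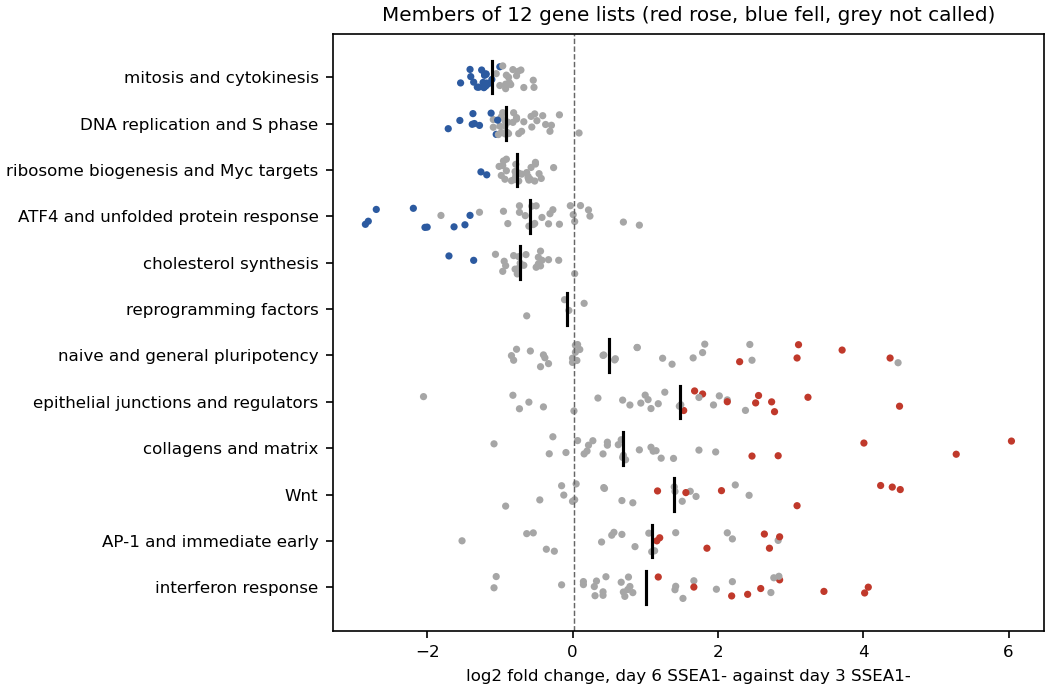
Each point is 1 tested member of 12 gene lists, placed by its log2 fold change of day 6 SSEA1- over day 3 SSEA1-, with a black bar at the list's median and a dashed line at the median of all tested genes (0.02). Members of the mitosis list, the replication list and the list of ribosome biogenesis and Myc targets lie together between -1.71 and 0.09. Members of the lists that hold increases spread widely, up to 6.04 for Eln in the matrix list.

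Genes for making serine, one-carbon units and amino acids, which the factor ATF4 is known to induce, were among those that fell. Of 34 tested genes of the ATF4 and unfolded protein response list, 9 fell (26.5%, against 1.24% of all tested genes) and 0 rose, with a median of -0.58. Hspa5, the main chaperone of the endoplasmic reticulum, changed by -0.5 and did not pass (adjusted p = 0.24). The promoter of Asns, asparagine synthetase, is shown with its ATF4 core (TGATGNAA, either strand) in capitals, from the same RefSeq table.
Asns, chr6:7693210-7693319, minus strand: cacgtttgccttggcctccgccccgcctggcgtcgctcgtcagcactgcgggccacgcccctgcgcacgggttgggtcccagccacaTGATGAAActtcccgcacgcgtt
This core was in 8 of 30 members with a promoter (26.7%), against 2.8% of tested genes and 4% of all promoters. Of the 8 members with a promoter that fell, 3 held it (Asns, Chac1 and Trib3). Mthfd2, Phgdh, Psat1, Psph and Stc2 lacked it.

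Mthfd2 (ENSMUSG00000005667), a mitochondrial enzyme of one-carbon metabolism, stood at 87.8, 92.7 and 136 CPM at day 3 and at 17, 12.4 and 15.6 at day 6 (-2.81 ± 0.37, adjusted p = 0.00014). The 2 days were far apart in every replicate. Slc7a5, a transporter of large neutral amino acids, went from 224, 239 and 251 to 59.2, 48.3 and 48.7 CPM (-2.19 ± 0.3, adjusted p = 0.00026). The serine synthesis enzymes fell together. Phgdh, the first of them, went from 117, 200 and 251 to 50, 41.8 and 47.5 CPM (-2.03 ± 0.4). Psat1, the second, went from 582, 533 and 623 to 207, 99.2 and 127 CPM (-2 ± 0.36). Psph, the last, changed by -1.48 ± 0.38. Asns went from 186, 268 and 289 to 103, 67.3 and 69.6 CPM (-1.63 ± 0.36), with no overlap of the days.

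Chac1, a glutathione-degrading enzyme, and Trib3, a pseudokinase, changed by -2.85 ± 0.76 and -2.7 ± 0.81, and day 3 replicate 1 was as low as the day 6 libraries in both (0.608 CPM for Chac1 and 0.648 for Trib3). Stc2, a secreted glycoprotein, changed by -1.41 ± 0.34. Atf4 itself stood at 214, 215 and 298 CPM at day 3 and at 159, 168 and 168 at day 6, with no overlap, and its change of -0.56 ± 0.23 did not pass (adjusted p = 0.12). The stress factor gene Ddit3 was at 6.61, 8.03 and 9.16 and then at 8.15, 8.77 and 7.05 CPM. Mthfd2, Slc7a5, Phgdh and Psat1 kept their calls without any 1 library, and Asns lost its call without day 6 replicate 2. Psph lost its call without day 3 replicate 3, day 6 replicate 1 or day 6 replicate 2, Chac1 without day 3 replicate 3, day 6 replicate 2 or day 6 replicate 3, and Stc2 without day 3 replicate 1, day 3 replicate 3 or day 6 replicate 3. Trib3 was called in the full set and without day 3 replicate 1, and in no other of these fits. Between 5 and 8 members fell in those fits, with 5 without day 3 replicate 3 and 5 without day 6 replicate 2. In SSEA1+ cells 9 of the list fell over the same days, at a background of 1.25% fell among all genes, and Mthfd2 changed by -2.34 and Slc7a5 by -1.8.

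All 30 tested genes of the list of ribosome biogenesis and Myc targets had a negative change (median -0.76). In this list 2 fell (6.67%, against 1.24% of all tested genes). With the GC trend removed 7 fell, where 283 of all tested genes did. The 2 were Rrp12, a ribosome export factor, at -1.26 ± 0.33, and Odc1, the first enzyme of polyamine synthesis, at -1.18 ± 0.35. Odc1 stood at 628, 255 and 223 CPM and then at 259, 110 and 120, so that its days overlapped. Both lost their calls without day 3 replicate 1, without day 6 replicate 2 and without day 6 replicate 3. The list's count was 7 without day 3 replicate 2, 5 without day 6 replicate 1, 1 without day 6 replicate 3, and 0 without day 3 replicate 1 or day 6 replicate 2. Of 17 heat shock and protein folding genes 2 fell (11.8%, against 1.24% of all tested genes). These were the mitochondrial chaperonin Hspd1 (-1.21 ± 0.29) and the chaperone Hsph1 (-1.26 ± 0.33). In this list 0 fell without day 3 replicate 1 or without day 6 replicate 2, and 1 without day 6 replicate 3. Of 31 respiratory chain genes 0 rose and 0 fell (median -0.24).

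Of 23 genes of the cholesterol synthesis list 2 fell (8.7%, against 1.24% of all tested genes), and 4 with the replicate block (1.73% of all). The median change was -0.72, and 22 were negative. Fdps, an enzyme of the mevalonate pathway, went from 138, 160 and 178 to 80, 53.3 and 52.2 CPM (-1.36 ± 0.32). Its days did not overlap, and it lost its call without day 6 replicate 2 and without day 6 replicate 3. The list's count was 10 without day 6 replicate 1, the highest day 6 library for Fdps, 1 without day 6 replicate 3 or any 1 day 3 library, and 0 without day 6 replicate 2.

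The glycolysis list split. Of its 24 tested genes 3 rose (12.5%, against 4.65% of all tested genes) and 3 fell (12.5%, against 1.24%). Pgk1, Eno1 and Pfkp, enzymes of the main pathway, fell (-1.34 ± 0.35, -1.25 ± 0.34 and -1.2 ± 0.35), while Aldoc and Eno2, forms known from brain, and Pdk4, which restrains pyruvate dehydrogenase, rose. Aldoc went from 1.42, 8.49 and 8.26 to 13.8, 78.1 and 91.6 CPM (3.33 ± 0.77), replicate 1 being lowest on both days. Eno1 stood at 1025, 1140 and 1362 and then at 472, 537 and 477 CPM. None of the 24 was called without day 3 replicate 1, and 0 fell without day 6 replicate 2 or without day 6 replicate 3. Pgk1 lost its call in those 3 fits, Eno1 and Pdk4 there and without day 3 replicate 3, and Pfkp without any 1 library.

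**Figure D3:**
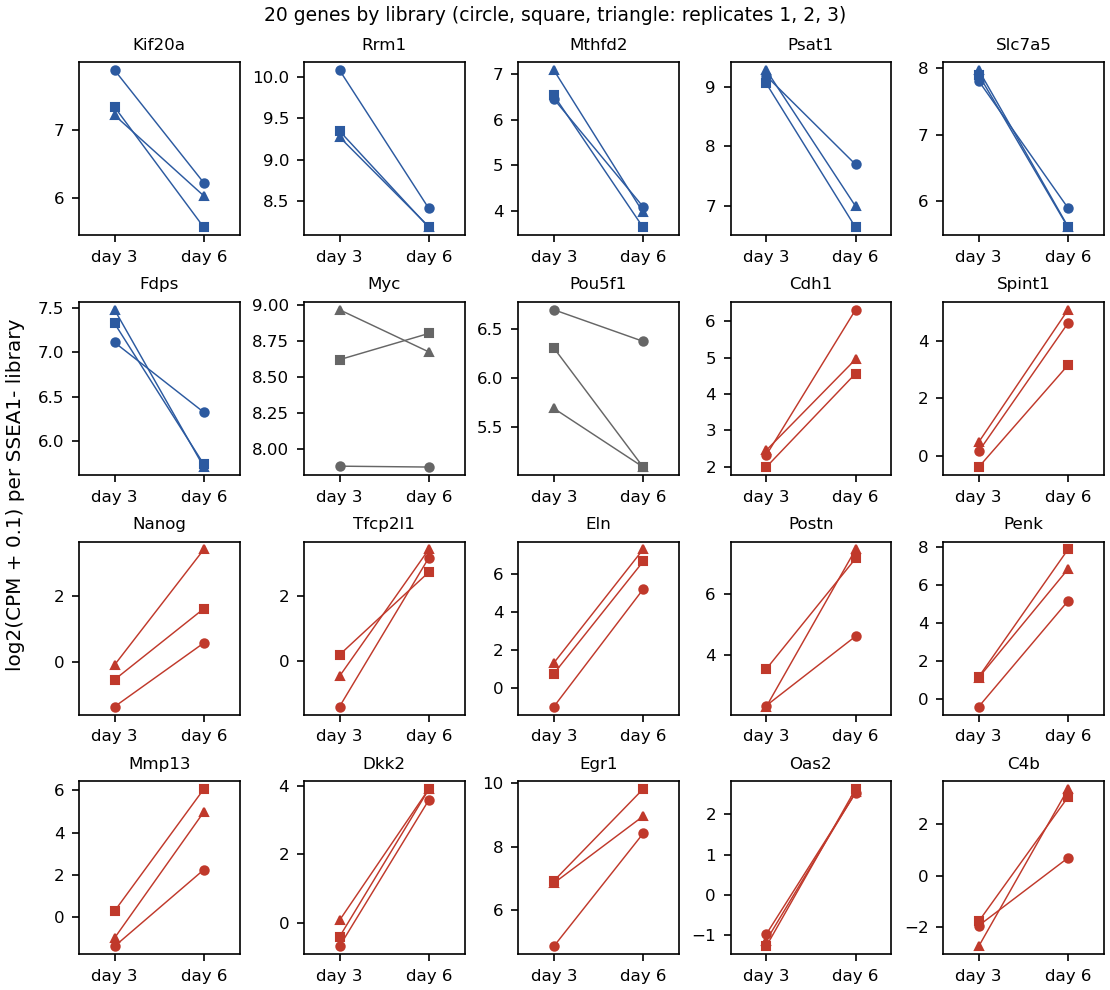
Each panel shows 1 gene, with log2(CPM + 0.1) of each SSEA1- library at day 3 and day 6 and a line between libraries of the same replicate number (circle, square and triangle for replicates 1, 2 and 3; blue fell, red rose, grey not called). In Slc7a5, Oas2 and Dkk2 the replicates run close together, while for Postn, Mmp13 and C4b replicate 1 ends well below replicates 2 and 3.

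The reprogramming factor genes did not change together. Pou5f1 stood at 104, 79.3 and 51.6 CPM at day 3 and at 83.1, 34 and 34 at day 6 (-0.63 ± 0.65, adjusted p = 0.56). Sox2 stood at 5.07, 41.9 and 30.2 and then at 11.2, 42.7 and 17.5 CPM. Klf4 changed by 0.16 ± 0.36 and Myc by -0.05 ± 0.38, with overlapping days, so that 0 of the 4 were called. In SSEA1+ cells the day 3 means of Pou5f1, Sox2, Klf4 and Myc were 226, 344, 627 and 865 CPM, above every SSEA1- library of both days. As a check of the sort, Fut9 stood at 11.8, 2.83 and 3 CPM at day 3 and at 4.29, 5.46 and 7.72 at day 6, against means of 39.8 and 42.1 in SSEA1+ cells. Thy1, a surface marker of fibroblasts, stood at 199, 364 and 269 and then at 401, 540 and 357 CPM, against 39.7 and 31.3 in SSEA1+ cells. Neither Fut9 (0 ± 0.49) nor Thy1 (0.64 ± 0.47) passed the test in the step.

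Of 34 tested pluripotency genes 5 rose (14.7%, against 4.65% of all tested genes) and 0 fell (median 0.5). Tfcp2l1, a factor of the naive state, went from 0.284, 1.05 and 0.631 to 8.85, 6.51 and 10.6 CPM (3.71 ± 0.63, adjusted p = 0.0015). Its days were well separated and its call held without any 1 library. Nanog (ENSMUSG00000012396), a core factor, went from 0.284, 0.582 and 0.833 to 1.39, 2.99 and 10.8 CPM (3.11 ± 0.9, adjusted p = 0.032). Sall4, a zinc finger factor, went from 0.122, 0.0388 and 0.126 to 0.232, 0.243 and 2.05 CPM (3.09 ± 0.87). Tdgf1, a Nodal co-receptor, and Gdf3, a ligand of that pathway, changed by 4.37 ± 1.28 and 2.3 ± 0.72.

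Day 6 replicate 3 was the highest day 6 library in all 5 of these genes, and Nanog, Tdgf1 and Gdf3 lost their calls without it, without replicate 2 of day 6 and without any 1 day 3 library. Sall4 lost its call without it and without any 1 day 3 library. Just 1 pluripotency gene rose without day 6 replicate 3 and without each day 3 library, 2 without day 6 replicate 2 and 7 without day 6 replicate 1. Tfap2c, a factor of trophoblast and germ cells, had the same order of replicates, from 0, 0.116 and 0.783 to 0.773, 4.85 and 17.5 CPM (4.48 ± 0.97), and lost its call without day 3 replicate 1 and without day 6 replicate 3. In SSEA1+ cells 9 of the 34 rose (3.21% of all genes), with Nanog at 26.2 ± 20.8 CPM (SD, n = 3) at day 6.

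Of 32 tested genes of epithelial junctions and regulators, 10 rose (31.2%, against 4.65% of all tested genes) and 0 fell, with a median of 1.48. Spint1 (ENSMUSG00000027315), an inhibitor of membrane serine proteases, went from 1.01, 0.659 and 1.29 to 24.8, 8.89 and 34.3 CPM (4.5 ± 0.48, adjusted p = 5.3e-06). Spint2, a related inhibitor, went from 4.05, 7.02 and 8.76 to 20.1, 31.9 and 35.4 CPM (2.13 ± 0.32). Both were higher in every day 6 library and were called without any 1 library.

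Cdh1, E-cadherin, went from 4.9, 3.88 and 5.38 to 79.9, 23.6 and 31 CPM (3.24 ± 0.74, adjusted p = 0.0096), the largest value being that of day 6 replicate 1, and it lost its call without day 3 replicate 1. Epcam, an adhesion molecule, went from 0.77, 0.659 and 0.707 to 4.83, 2.99 and 6.49 CPM (2.74 ± 0.54). Ehf, an ETS factor of epithelia, went from 16.3, 15 and 18.3 to 48.8, 104 and 132 CPM (2.52 ± 0.51). The other 5 that rose were the protease St14 (1.68 ± 0.53), the junction genes Cldn4 (2.78 ± 0.7), Tjp3 (2.56 ± 0.76) and Lsr (1.53 ± 0.48), and the factor Grhl1 (1.79 ± 0.5). Each of these 5 lost its call without day 3 replicate 1 and without day 6 replicate 3, Grhl1 in each fit but that without day 6 replicate 1, and St14 in all 6. Cldn4 lost its call also without day 3 replicate 3, Lsr without any day 3 library, and Tjp3 without replicate 2 of either day.

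The keratin gene Krt19 went the other way, from 136, 90.3 and 111 to 65.6, 11.2 and 4.56 CPM (-2.05 ± 0.84). It did not pass (adjusted p = 0.12) but fell with the replicate block (adjusted p = 0.012). Leaving out 1 library left 4 (without day 3 replicate 1), 5 (without day 6 replicate 3) or 6 to 11 epithelial members that rose. In the SSEA1+ step 12 of the 32 rose (3.21% of all genes), and Spint1 changed by 4.5 there too. Cdh1 at day 6 stood at 152 ± 175 CPM (SD, n = 3) in SSEA1+ cells, a spread as large as its mean.

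Of 24 mesenchymal transcription factors 1 rose (4.17%, near the 4.65% of all tested genes) and 0 fell. Their changes ran from -1.17 to 4.13 (median 0.45). In 9 of the 24 the days did not overlap, as they did not in 28.5% of all tested genes. The gene that rose was Heyl, a Notch target (4.13 ± 0.94), which lost its call without day 3 replicate 1 and without day 6 replicate 3. Snai2, a repressor of epithelial genes, stood at 22.4, 32 and 28.9 and then at 21.8, 25.9 and 18.1 CPM (-0.34 ± 0.4, adjusted p = 0.62).

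Some genes of the fibroblast matrix rose. Of 30 tested collagen and matrix genes 5 rose (16.7%, against 4.65% of all tested genes) and 0 fell (median 0.69), and 26 had a positive change. In the SSEA1+ step 0 of these rose and 4 fell (1.25% of all genes fell), with a median of -0.55, and the test of the difference between the steps called none of the list. Eln (ENSMUSG00000029675), elastin, went from 0.405, 1.59 and 2.4 to 36.9, 102 and 159 CPM (6.04 ± 0.79, adjusted p = 0.00013), with a MEF mean of 615. Postn, a matrix protein of connective tissue, went from 4.94, 11.5 and 4.82 to 24.3, 143 and 176 CPM (4.01 ± 0.76), far under its MEF mean of 4114. Lum and Dcn, proteoglycans that bind collagen, changed by 5.28 ± 1.2 and 2.47 ± 0.77, and Col14a1, a fibril-associated collagen, by 2.83 ± 0.7.

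Day 6 replicate 3 was the highest of the day 6 libraries in all 5. Col1a1, the main fibrillar collagen chain, stood at 160, 1019 and 556 CPM at day 3 and at 521, 2589 and 1447 at day 6. It was higher at day 6 within each replicate number, but the days overlapped and the change of 1.39 ± 0.82 did not pass (adjusted p = 0.28). Eln and Postn were called without any 1 library. Without day 3 replicate 1 the list's count was 2 (Lum, Dcn and Col14a1 lost their calls), and without day 3 replicate 3 it was 3 (Dcn and Col14a1 lost theirs); Dcn was also lost without day 3 replicate 2, day 6 replicate 2 or day 6 replicate 3.

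Of 18 fibroblast surface genes 2 rose (11.1%, against 4.65% of all tested genes), and 5 with the replicate block (7.09% of all). Itga11, a collagen-binding integrin, went from 2.31, 2.87 and 1.51 to 26.5, 73.2 and 44.7 CPM (4.44 ± 0.85), and Fap, a fibroblast protease, changed by 3.88 ± 0.9. Fap lost its call without day 3 replicate 1, which left a count of 1, while 3 rose without day 3 replicate 2 and 4 without day 6 replicate 1. Pdgfrb, the receptor of PDGF, stood at 7.98, 60.2 and 44.5 CPM and then at 52.4, 181 and 143. Its change of 1.74 ± 0.56 passed with the block (adjusted p = 0.014) and not without it (adjusted p = 0.051). Pmepa1, a feedback gene of TGF-beta, was the 1 of 20 genes of that response that rose (5%, near the 4.65% of all tested genes), from 30.1, 32.2 and 20.9 to 59, 84 and 66 CPM (1.33 ± 0.33); it lost its call without day 3 replicate 1, day 3 replicate 3 or day 6 replicate 2, and 2 of the list rose with the block.

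The 12 largest increases, among called genes with a mean of 10 CPM or more at day 6 and no overlap, were those of Mmp3, Tac2, Cytl1, Penk, Egfl6, Eln, Mmp13, Aspn, Htra3, Sez6, Lum and Tnn. Mmp3 (ENSMUSG00000043613), a matrix metalloprotease, went from 0.122, 0.504 and 0.0505 to 2.74, 81.6 and 42.4 CPM (7.61 ± 1.27, adjusted p = 0.0015). Penk, the precursor of enkephalins, went from 0.648, 2.13 and 2.07 to 35.7, 237 and 115 CPM (6.3 ± 1.06). Egfl6, a secreted protein with EGF repeats, went from 1.3, 1.05 and 0.909 to 38.8, 77.5 and 106 CPM (6.1 ± 0.91).

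Mmp13, a collagenase, changed by 5.83 ± 1.01. Aspn, a small matrix proteoglycan, went from 0.203, 5.47 and 4.17 to 27.9, 217 and 207 CPM (5.51 ± 1). Tac2, a tachykinin precursor, changed by 6.87 ± 1.15, Cytl1, a secreted protein, by 6.37 ± 1.39 (2.36, 3.4 and 26 CPM at day 6), the protease Htra3 by 5.42 ± 0.95, and the matrix protein Tnn by 4.78 ± 0.94. Day 6 replicate 1 was the lowest day 6 library in all 12 genes, and day 3 replicate 1 the lowest day 3 library in 10. In 5 of the 12 the MEF mean was above the day 6 mean. The calls held without any 1 library in 10, and Cytl1 and Lum lost theirs without day 3 replicate 1. In the SSEA1+ step Tac2, Cytl1, Egfl6 and Sez6 rose too (5.93, 6.56, 4.41 and 5), and the rest of the 12 did not pass. Day 6 means of Tac2 and Sez6 were higher in SSEA1+ cells (40 and 38.1 CPM) than in SSEA1- cells (26.2 and 11.2 CPM).

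Of the 12 largest decreases, Mthfd2, Slc7a5, Phgdh and Psat1 have been given above and were the 4 called without any 1 library. Lrp2, an endocytic receptor, stood at 31.9, 5.7 and 9.47 CPM and then at 2.16, 0.525 and 0.293 (-3.99 ± 1.17, adjusted p = 0.034). Tubb3, a tubulin of neurons, went from 18.7, 10.5 and 16.3 to 3.01, 1.01 and 1.08 CPM (-3.16 ± 0.7), and Slc13a5, a citrate transporter, from 12.6, 17.8 and 14.1 to 2.7, 1.58 and 0.731 CPM (-3.15 ± 0.91). U90926, Mum1l1, the lectin Siglecg, the keratin Krt13 and the heparanase gene Hpse changed by -3.44 ± 1.03, -1.93 ± 0.54, -2.75 ± 0.67, -2.43 ± 0.67 and -1.94 ± 0.55. Day 6 replicate 1 was the highest of the day 6 libraries in all 12. Without day 6 replicate 2 the calls of the 8 genes beyond the first 4 were lost, and without day 3 replicate 1 those of 7 of them (all but Tubb3). Without day 6 replicate 3 the same 7 lost their calls. U90926, Slc13a5 and Krt13 lost theirs without day 3 replicate 3, and U90926 and Slc13a5 without day 3 replicate 2.

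**Figure D4:**
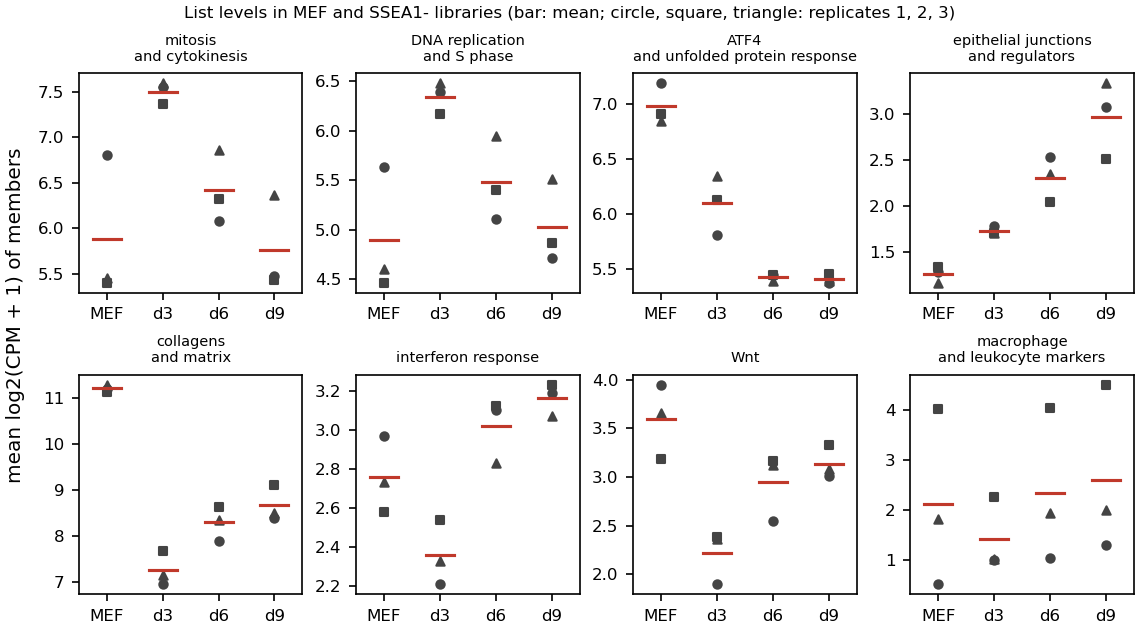
Each panel gives the mean log2(CPM + 1) of the tested members of 1 list in the MEF libraries and the SSEA1- libraries of days 3, 6 and 9 (circle, square and triangle for replicates 1, 2 and 3, red bar for the mean). The mitosis list stands at 7.36 to 7.59 at day 3 and at 6.08 to 6.86 at day 6, the interferon list at 2.21 to 2.54 and then 2.83 to 3.12, and the macrophage list is highest in replicate 2 of every group.

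Wnt pathway genes that rose were the secreted inhibitors Dkk2 and Sfrp1, the Dkk family member Dkk3, 2 receptors and 2 ligands. Of 25 tested genes 7 rose (28%, against 4.65% of all tested genes) and 0 fell (median 1.4). Dkk2 (ENSMUSG00000028031), a Wnt antagonist, went from 0.527, 0.659 and 0.959 to 11.9, 14.8 and 14.9 CPM (4.24 ± 0.61, adjusted p = 0.00042). Dkk3, of the Dkk family, went from 1.78, 13 and 6.31 to 30.4, 75.3 and 73.2 CPM (3.09 ± 0.6). Both were higher in every day 6 library and held their calls without any 1 library. Sfrp1, a decoy that binds Wnt, stood at 73.6, 77.2 and 80.5 and then at 110, 428 and 422 CPM (2.05 ± 0.58).

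Lgr5, a receptor that enhances the response, changed by 4.51 ± 1.14, the receptor Fzd1 by 1.17 ± 0.35 and the ligand Wnt5b by 1.56 ± 0.49. The remaining call, Wnt6, had 0 reads in all 3 day 3 libraries and at most 0.155 CPM at day 6. Axin2, a target of the pathway, stood at 0.0405, 0.427 and 0.303 and then at 0.541, 1.74 and 1.99 CPM (2.43 ± 0.82, adjusted p = 0.06). Counts were 2 without day 3 replicate 1, day 3 replicate 3 or day 6 replicate 2, and 4 without day 6 replicate 3. Lgr5 lost its call in the first 3 of these fits and Sfrp1 in each fit but that without day 6 replicate 1. Fzd1 and Wnt5b lost theirs without day 3 replicates 1 or 3 or day 6 replicates 2 or 3.

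Of 23 immediate early and feedback genes of growth factor signalling 6 rose (26.1%, against 4.65% of all tested genes) and 0 fell (median 1.09). Spry4, an inhibitor of receptor kinase signalling, went from 47.5, 34 and 39.2 to 83.1, 87 and 99.5 CPM (1.16 ± 0.23, adjusted p = 0.0041), and its call held without any 1 library. Spry1, a related inhibitor, changed by 1.85 ± 0.39, and Dusp6, a phosphatase that acts on ERK, by 1.2 ± 0.32. Egr1, an immediate early transcription factor, stood at 29.2, 122 and 116 CPM and then at 343, 905 and 500 (2.71 ± 0.79), and Egr2 and Egr3 changed by 2.64 ± 0.75 and 2.85 ± 0.91. Fos, of the AP-1 complex, went from 137, 117 and 171 to 459, 973 and 523 CPM with no overlap, and its change of 2.2 ± 0.74 did not pass (adjusted p = 0.06) but did with the block (adjusted p = 0.049). Without day 3 replicate 1 the count was 1 and without day 6 replicate 2 it was 2, while 3 rose without any 1 of day 3 replicates 2 and 3 or day 6 replicate 3. Egr1 lost its call in each of these 5 fits. Spry1 lost its call without day 3 replicate 1, and Egr3, with overlapping days and at most 0.966 CPM, in each fit but that without day 6 replicate 3. Dusp6 lost its call without replicates 1 or 2 of day 3 or 2 or 3 of day 6, and Egr2 without replicates 1 or 3 of day 3 or 2 or 3 of day 6.

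Of 36 tested interferon response genes 9 rose (25%, against 4.65% of all tested genes) and 0 fell. The median change was 1.01, 33 were positive, and in 20 the values of the days did not overlap, as they did not in 28.5% of all tested genes. One promoter, of Oas3, is shown with its ISRE core, the element bound by interferon-regulated factors, in capitals, from the same RefSeq table.
Oas3, chr5:120777660-120777769, minus strand: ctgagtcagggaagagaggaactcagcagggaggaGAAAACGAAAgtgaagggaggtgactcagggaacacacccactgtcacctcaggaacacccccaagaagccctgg
The ISRE core was in 14 of 28 members with a promoter (50%), against 3.6% of tested genes and 3.4% of all promoters. Of the 5 members with a promoter that rose, 2 held it (Bst2 and Oas3), and Ifi44, Irf9 and Oasl2 lacked it.

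Oas2 (ENSMUSG00000032690), a sensor that makes oligoadenylates on double-stranded RNA, went from 0.405, 0.31 and 0.353 to 5.68, 6.1 and 5.76 CPM (4.02 ± 0.63, adjusted p = 0.00097), with replicates close together on both days. Ifi44, an interferon-induced protein, went from 0.365, 0.194 and 0.126 to 4.71, 1.94 and 0.878 CPM (3.46 ± 0.78). Irf9, a subunit of the factor that binds the ISRE, went from 9.65, 15.4 and 12 to 30, 26.2 and 28 CPM (1.18 ± 0.29). Bst2, which tethers budding viruses, went from 14.2, 28.2 and 27.4 to 41.1, 96 and 85.2 CPM (1.67 ± 0.4). Oas1b, Oas3 and Oasl2, of the same family as Oas2, changed by 2.19 ± 0.54, 2.41 ± 0.74 and 2.59 ± 0.75, and the GTPases Mx1 and Mx2 by 4.07 ± 1.07 and 2.85 ± 0.78. Mx1 had 0 reads in day 3 replicates 1 and 3 and at most 0.351 CPM at day 6, so its fitted change is no bound.

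Isg15, a ubiquitin-like modifier, stood at 0.203, 0.543 and 0.555 and then at 3.25, 3.6 and 2.69 CPM (2.84 ± 0.95, adjusted p = 0.057), and passed with the block (adjusted p = 0.031). Ifit2 was lower at day 6, at 6.72, 10.4 and 9.74 CPM after 18.4, 19.4 and 17.6 (-1.05 ± 0.48, adjusted p = 0.16). Oas2 and Ifi44 held their calls without any 1 library. Irf9, Bst2, Oas1b, Oasl2, Mx1 and Mx2 lost their calls without day 3 replicate 1, and Bst2, Oas1b, Oas3, Oasl2, Mx1 and Mx2 without day 6 replicate 2. Oas3, Oasl2, Mx1 and Mx2 also lost theirs without day 6 replicate 3. Oas3, Oasl2 and Mx2 did so without day 3 replicate 2, and Oas3, Oasl2 and Mx1 without day 3 replicate 3. The list's count was 3 without day 3 replicate 1 and 3 without day 6 replicate 2, and 5 without day 6 replicate 3. In the SSEA1+ step 2 members rose (3.21% of all genes), and the test of the difference between the steps called none of the list.

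Of 29 chemokine and inflammation genes 4 rose (13.8%, against 4.65% of all tested genes), and 6 with the block (7.09% of all). The median change was 0.48. C4b (ENSMUSG00000073418), a complement component, went from 0.162, 0.194 and 0.0505 to 1.51, 8.12 and 10.1 CPM (5.62 ± 0.99, adjusted p = 0.0019), and Cxcl12, a chemokine of stroma, from 10.6, 35 and 17.8 to 72.7, 351 and 272 CPM (3.46 ± 0.7). Both held their calls without any 1 library. C3, another complement component, went from 0.324, 9.69 and 0.757 to 5.22, 86.1 and 18 CPM (3.35 ± 1.05), replicate 2 being highest on both days. Icam1, an adhesion molecule of leukocyte binding, went from 3.12, 22.3 and 7.98 to 41.2, 38.1 and 22.8 CPM (1.61 ± 0.5). The list's count was 2 without day 3 replicates 1 or 3 or day 6 replicates 2 or 3, since C3 and Icam1 lost their calls there, and Icam1 lost its call without day 6 replicate 1 too.

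Markers of macrophages and other leukocytes had a median change of 2.41, with 16 of 17 positive, against a median of -0.03 in the SSEA1+ step. Their summed level was 325, 190 and 193 CPM at day 3 and 577, 546 and 283 CPM at day 6, most of it Laptm5 except in day 6 replicate 2, where Laptm5 stood at 213 CPM. In SSEA1+ cells the sum was 477, 272 and 384 CPM at day 3 and 829, 470 and 379 CPM at day 6. The mean log2(CPM + 1) of the markers in SSEA1- cells was 1.01, 2.27 and 1.02 at day 3. At day 6 it was 1.04, 4.04 and 1.94, so that replicate 1 hardly moved by this measure. Replicate 2 was the highest day 6 library in 16 of 17 tested markers. Lyz2, the lysozyme of macrophages, stood at 0.203, 22.4 and 1.54 CPM and then at 0.27, 113 and 15, and Mrc1, the mannose receptor, at 0.284, 5.58 and 0.505 and then at 0.193, 37.8 and 5.82. The defining gene Adgre1 had 0 reads in day 3 replicate 1 and 5.62 CPM in day 6 replicate 2, and C1qa had 0 reads in replicate 1 on both days. Of the 17, 0 rose or fell, and 6 rose with the block (7.09% of all tested genes). The part of these cells in the changes of the inflammation, complement and interferon genes was not tested.

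Among cell cycle inhibitors and p53 targets 3 of 23 rose (13%, against 4.65% of all tested genes). Sesn1, a p53 target that restrains mTORC1, went from 14.8, 21.6 and 16.8 to 40.9, 34 and 40.5 CPM (1.12 ± 0.24), and Cdkn1c, a CDK inhibitor, from 1.99, 11.1 and 16.9 to 18, 90.1 and 106 CPM (2.83 ± 0.84). Igfbp5, a binding protein of IGF, changed by 3.12 ± 0.93. Cdkn1a stood at 494, 507 and 397 and then at 766, 425 and 277 CPM (0.07 ± 0.44), and Cdkn2a at 25, 65.2 and 47.5 and then at 64.5, 128 and 44.9 CPM (0.78 ± 0.54). The days overlapped in both, as they did in Cdkn2b (0.3 ± 0.59). Without day 3 replicate 1, 0 of the 23 rose, and without day 3 replicate 2 or day 6 replicates 2 or 3, 1 did. Sesn1 lost its call without day 3 replicate 1, Cdkn1c in those 4 fits, and Igfbp5 in each fit but that without day 6 replicate 1.

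The same 3 days in SSEA1+ cells gave 556 genes that rose (3.21%) and 217 that fell (1.25%). The test of the difference between the 2 steps called 2 genes, both with the higher change in SSEA1- cells (0.0115%), and 0 with the lower, while 459 genes (2.65%) had an unadjusted p under 0.05. The median standard error was 0.5 for the difference and 0.35 for the step of each fraction. How often this test recovers a true difference was not simulated. Genes and lists without a call in it are therefore not shown to change alike in both fractions. In mitosis genes the SSEA1+ median was -0.35 with 0 calls, beside -1.11 with 19 in SSEA1- cells, and the difference of the steps was called in none of them.

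Podn (ENSMUSG00000028600), a matrix proteoglycan, went from 2.11, 2.99 and 3.56 to 15.8, 42.9 and 34.6 CPM in SSEA1- cells (3.42 ± 0.51). In SSEA1+ cells its mean was 3.39 and then 2.07 CPM. The SSEA1+ libraries stood at 2.13, 4.04 and 3.99 and then at 4.14, 1.34 and 0.739 CPM. Replicate 1 was thus higher at day 6 there, and replicates 2 and 3 were lower. The difference of the steps was 4.11 ± 0.71 (adjusted p = 0.04). Cyp26b1 (ENSMUSG00000063415), which degrades retinoic acid, went from 11.4, 7.83 and 7.78 to 2.55, 5.5 and 2.49 CPM in SSEA1- cells (-1.36 ± 0.45), and passed in that step with the block alone (adjusted p = 0.042, 0.055 without). In SSEA1+ cells its mean went from 13 to 0.223 CPM. The day 6 SSEA1+ values were 0.349, 0.214 and 0.106 CPM, where 3 reads corresponded to 0.132, 0.162 and 0.166 CPM. The difference was 4.47 ± 0.73 (adjusted p = 0.031), and it rests on counts near that limit. The count of 2 became 0 without day 3 replicate 1, 2 or 3, without day 6 replicate 2, or without an SSEA1+ library of day 3 (replicates 1 and 2) or day 6 (replicates 2 and 3), and 1 without day 6 replicate 3.

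**Figure D5:**
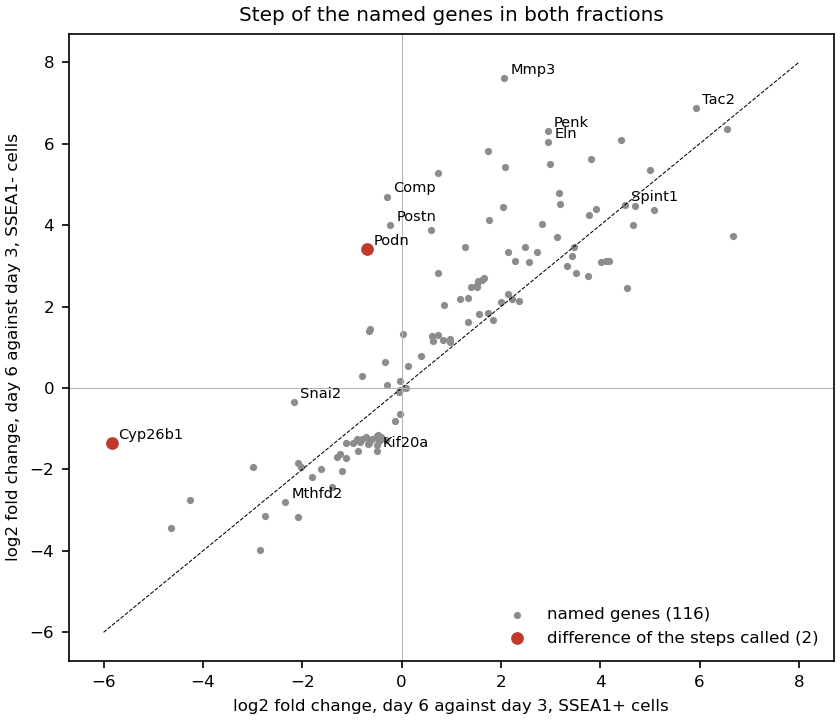
Each point is 1 of the 118 genes named by rule, with the log2 fold change of day 6 over day 3 in SSEA1+ cells on the horizontal axis and in SSEA1- cells on the vertical axis, and a dashed line where both are equal. Podn and Cyp26b1 (red) are those called in the difference of the steps, and they lie above the line, as do matrix genes such as Postn at 4.01 in SSEA1- and -0.23 in SSEA1+ cells.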

How the data were processed

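Poly-A RNA of 33 libraries was counted per gene by the authors, and the deposited values are raw read counts per Ensembl gene. Per the submitters' processing notes, HTSeq 0.6.0, STAR 2.3.0 and Picard 1.100 were used with the build mm9; their roles and the gene annotation are not given in the sources used here. That strand was ignored in counting is stated by file names alone; genes overlapping on opposite strands are therefore uncertain. The summary lines of the counter, such as reads in no gene, were left out of library sizes and tests, and the share in no gene was 5.32 to 6.95% at day 3 and 9.29 to 9.95% at day 6. Symbols and GC content came from another annotation release, with GC for 96.3% of tested genes.

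Genes were filtered with filterByExpr, scaled by TMM and fitted with edgeR 4.0.16 (R 4.3.3), robust quasi-likelihood, in 1 model with a coefficient for each of the 11 groups, over 33 libraries (22 residual degrees of freedom). Standard errors are approximate, taken from the F statistic and the log2 change. The step of SSEA1+ cells and the difference of the steps were contrasts of the same model. DESeq2 1.42.0, other scalings and filters, a GC correction and leaving out libraries were tried. A count of 3 reads corresponded to 0.072 to 0.126 CPM in the 6 libraries, and this floor covers counting error only. The standard errors come from the fit and include the spread between libraries. On data simulated for the step from these libraries (16706 genes tested), 88% of 100 genes changed 4-fold and 29% of 100 changed 2-fold were recovered, with 4 false calls. A call there was an adjusted p below 0.05, without the 2-fold rule, and recovery also asked for the right sign. The changed genes averaged over 10 CPM, so recovery at lower levels was not tested. No effect of the replicate number was simulated.

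Same-numbered libraries deviated together (r = 0.65, 0.56 and 0.48 for day 3 with day 6), each over 0.1, so the replicate number was taken to pair them, from the data and not from a label. This was decided before the fits were compared. Libraries of different number were at r = -0.54 to 0.2, and day 3 replicate 3 with day 6 replicate 2 (r = 0.2) was also over 0.1. The main fit has no replicate term, so values given without mention of the block ignore the pairing by number.

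Named genes were the 12 largest changes of each sign among called genes whose higher group averaged 10 CPM or more and whose days did not overlap; up to 5 called members of each list by p; a set of standard markers; and the genes called in the difference. Other genes named are further called members, or uncalled members chosen after their values were seen. The members and lists were chosen with earlier results of these data known. Some members of the lists are counted but not reported here by name. Promoters came from RefSeq tables of GRCm38.p6. Not all chromosomes were searched, and "all promoters" means the 32851 that were. Shares of members and of tested genes count genes, while shares of all promoters count promoters.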

Additional observations from a re-analysis of the deposited data

Results flagged for a closer look

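For 2 genes the step from day 3 to day 6 differed between the SSEA1- and SSEA1+ fractions by the interaction test of edgeR's quasi-likelihood model. The difference for Podn was 4.11 ± 0.71 on the log2 scale (adjusted p = 0.04), with the larger change in SSEA1- cells. The difference for Cyp26b1 was 4.47 ± 0.73 (adjusted p = 0.031), with the larger decrease in SSEA1+ cells. Its day 6 mean there was 0.223 CPM, near the level of 3 reads.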

How the results depend on the processing

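The 805 increases and 214 decreases became 1228 and 299 with the replicate block in all 33 libraries, 1647 and 415 with the block in the 6 libraries alone, and 1191 and 370 with the block and the GC trend removed. Without the block they were 212 and 58 in the 6 libraries alone, 1229 and 237 by DESeq2, 619 and 131 without the low-count filter, 882 and 696 at any size, and 216 and 62 at an adjusted p under 0.01. Leaving out 1 library or 1 replicate number gave 99 to 1070 increases and 29 to 496 decreases. No call was opposite in any of these fits.

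The 2 genes called in the difference of the steps became 0 in the 12 libraries alone, 14 by DESeq2, 4 with the GC trend removed, 4 with RLE size factors, 48 with the replicate block in the 12 libraries alone and 0 at an adjusted p under 0.01. Leaving out 1 library or number gave 0 to 3, the SSEA1+ libraries being an alternative chosen after seeing the data. The cause of these shifts was not tested. Of 2957 results for 175 genes, each under up to 17 settings, 2076 kept their side of the threshold, 818 lost the call, 63 gained it and 0 reversed. Depth of 23.87 M reads or more leaves genes under 0.126 CPM near the limit of 3 reads.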
